A study of Mus musculus with 6 samples.

Results

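Heat shock proteins and J-domain co-chaperones were followed through the meiotic maturation of mouse oocytes, from the prophase-arrested germinal vesicle (GV) stage to metaphase of the second meiotic division (MII). The genes were taken by symbol, from the probe sets of the expression array that have deposited values. All those annotated to exactly 1 gene symbol starting with Hsp or Dnaj were used. Left out were those of Hspa5 and Hsp90b1, which belong to the endoplasmic reticulum. This gave 115 of 21646 tested probe sets, for 54 of 11429 genes. A probe set is the group of short oligonucleotides on the array that together report 1 transcript region. By group, there were 5 probe sets for Hsp90 (all of Hsp90aa1), 27 for Hsp70 with its Hsp110 relatives, 5 for small Hsp, 9 for other Hsp symbols, 11 for Dnaja, 14 for Dnajb and 44 for Dnajc. The symbol rule also takes in genes that are no heat shock chaperones, among them Hspg2, which encodes the basement membrane proteoglycan perlecan, and Hspb11, which encodes a component of intraflagellar transport. No tested probe set was annotated to the paralogue Hsp90ab1. How the deposited probe sets were selected is not given, so other genes of these families may be missing as well.

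MII oocytes carried a first polar body and were recovered from the oviducts of mice of 22 to 24 days, primed with 5 IU of equine chorionic gonadotropin (eCG) for 44 to 46 h and then given 5 IU of human chorionic gonadotropin (hCG) for 14 h. GV oocytes came from large antral follicles of mice of the same age, 44 to 46 h after 5 IU of eCG, and were held in 5 µM milrinone, an inhibitor of the oocyte's phosphodiesterase that keeps meiosis arrested. The medium for MII oocytes is described as the same, but milrinone is listed for the GV samples alone. Each stage had 3 biological replicates of 300 oocytes and 1 array per replicate, so that every sample was a pool of oocytes from hormonally primed young mice, of a strain not given in the sources used here. Cumulus cells were stripped with hyaluronidase from MII oocytes and by pipetting from GV oocytes. The stage cannot be told apart from this handling, or from the hCG, the milrinone and the site of collection.

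Hsp70 is the cell's general folding machine: it grips exposed hydrophobic stretches of a protein in its ADP state and lets go when ATP returns. J-domain proteins bring substrates to Hsp70 and trigger its ATP hydrolysis, while nucleotide exchange factors, the Hsp110 family among them, restart the cycle. Hsp90 completes the maturation of kinases and steroid receptors, small Hsp hold unfolding proteins without ATP, and Hsp60 with Hsp10 forms the folding chamber of mitochondria. A fully grown oocyte is transcriptionally silent, and its maturation and the first cell cycle run on stored mRNA. In mouse embryos, Hspa1a and Hspa1b are among the first genes switched on after fertilization.

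Transcripts of this chaperone system were lower at MII for 30 of 54 genes and higher for 3, by limma at a threshold of 0.05 on p-values that were adjusted (Benjamini-Hochberg) across the 21646 probe sets, each gene being read from its brightest probe set (30 lower and none higher with hybridization controls made equal, 51 and none with poly-A controls made equal, 22 and 11 after quantile normalization, and 19 and 21 with array medians made equal). Among all 11429 genes, 37.8% were lower and 10.5% higher in the values as deposited. Over all 21646 probe sets, 7179 were lower and 104 higher with hybridization controls made equal, and 18380 and 65 with poly-A controls made equal. After quantile normalization 4794 were lower and 7538 higher, and with array medians made equal 4306 and 12016. The median difference, MII minus GV on the log2 scale, was -0.54 over the 54 genes, beside -0.20 over all genes. A fall of at least 4-fold was called for 13 of the 54 genes, where 9.84% of all genes had one. The called falls ranged from -5.36 to -0.52 and the rises reached 0.86, and no rise was 2-fold. The 3 MII and 3 GV values did not overlap for 37 of the 54 genes, beside 57.9% of all genes. In samples of this kind, fewer cells holding a transcript and less of it per cell cannot be told apart.

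The direction of small differences rests on the scale between arrays. The median of the 21646 tested probe sets was 5.47 to 5.49 on MII arrays and 6.1 to 6.12 on GV arrays. Their difference was -0.62 in the values as deposited. Making the medians equal moved every difference up by that amount, and making the poly-A spike-in controls equal moved the median difference of these probe sets to -1.02. Equal medians and quantile normalization were computed over these rows alone, whose selection is not given. Identical values recur on arrays of both stages, such as 11.5843 for Nlrp5 (MII replicate 1) and Hsp90aa1 (GV replicate 1). Whether the -0.62 comes from the selection of rows or from the scale between arrays was not tested. Under all 5 scales, the same 19 genes were called lower: Hsph1, Hspa1b, Hspa8, Hspa4, Hspb11, Dnajb1, Dnajb2, Dnajb6, Dnajb9, Dnajb11, Dnajc2, Dnajc7, Dnajc9, Dnajc10, Dnajc11, Dnajc16, Dnajc17, Dnajc21 and Dnajc30. The 3 rises, of Hspa12a, Hspa14 and Dnajc1, were called in the values as deposited, after quantile normalization and with array medians made equal. They were not called with either set of controls made equal. With hybridization controls made equal they stayed positive, at 0.41, 0.22 and 0.46, and with poly-A controls they were at -0.056, -0.24 and -0.012. The hybridization controls differed within a stage, with array means of 8.94 to 9.82 at GV and 9.42 to 9.86 at MII. Of the 21 genes not called as deposited, 18 were called higher with equal array medians. With poly-A controls made equal, all 21 were called lower. No background measure was used here, so a fall to values under the median of every MII array is written as a lower bound ("at least"). A rise from values under the median of every GV array is written so as well. These bounds hold on the scale as deposited alone. With equal array medians Hspa1a was at -0.12, Dnajc6 at -0.042 and Hspbp1 at 0.076. With poly-A controls made equal Hspa12a was at -0.056.

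**Figure D1:**
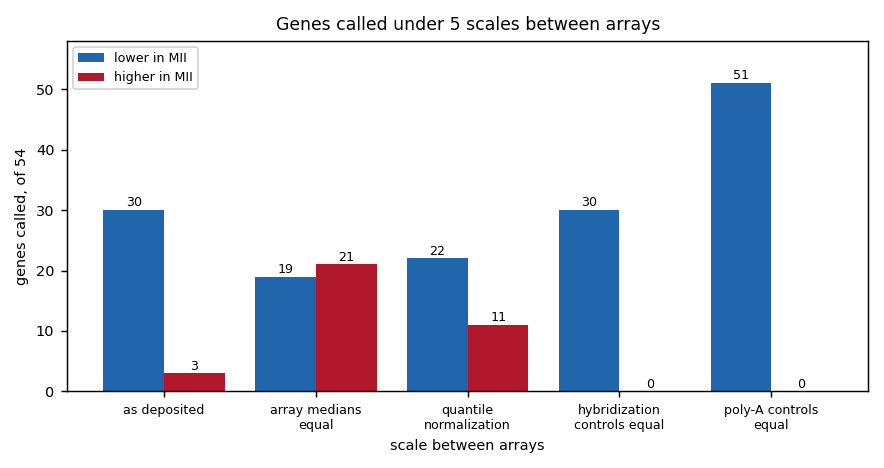
Number of genes, of 54, called lower (left bar) and higher (right bar) in MII than in GV oocytes by limma at an adjusted p under 0.05, under 5 scales between arrays. The values as deposited gave 30 lower and 3 higher genes, and equal array medians gave 19 and 21. Of all 21646 probe sets, 4306 were lower and 12016 higher with equal array medians.

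**Figure D2:**
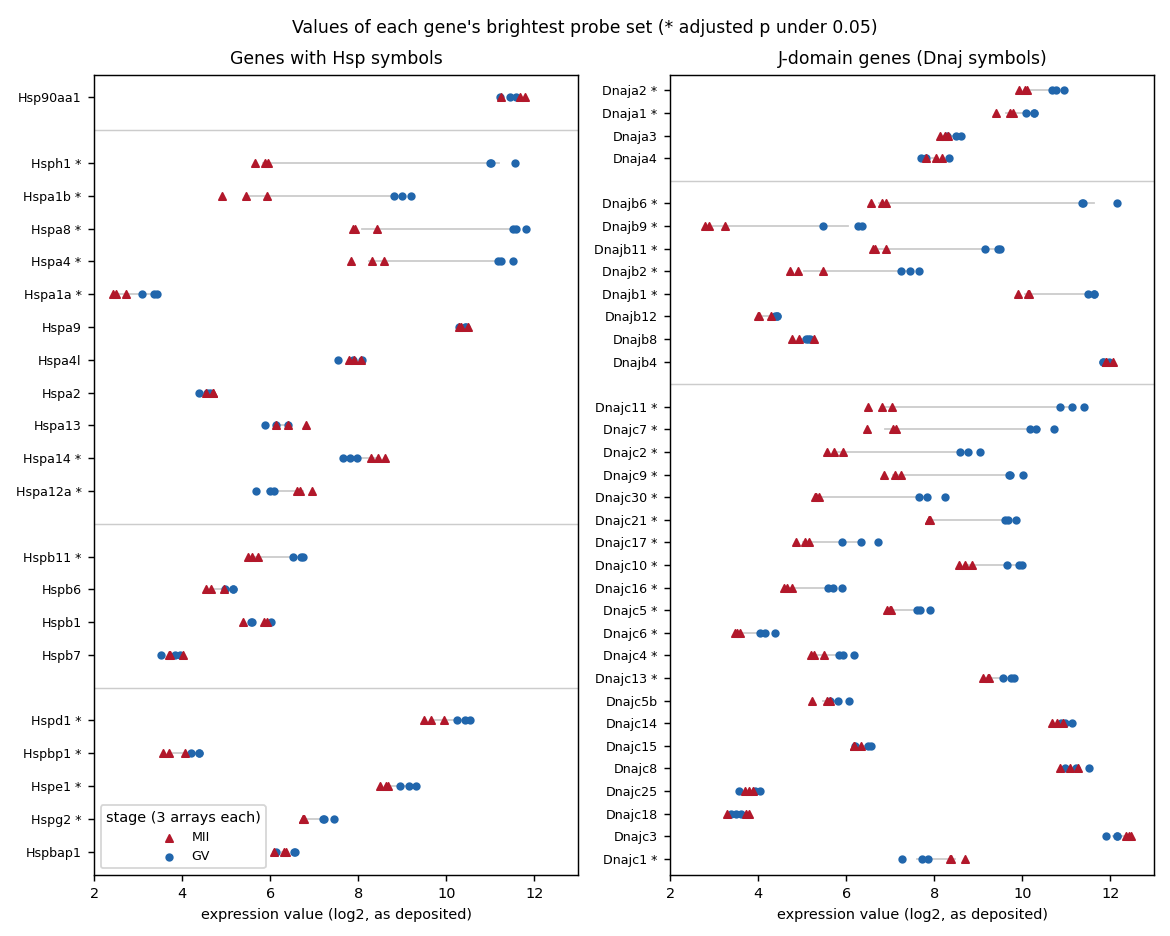
Expression values (log2, as deposited) of each gene's brightest probe set on the 3 MII arrays (triangles) and the 3 GV arrays (circles), with a line between the stage means and an asterisk for an adjusted p under 0.05. Hsph1, Hspa1b, Hspa8 and Hspa4 lie apart at the 2 stages, while the points of Hsp90aa1, Hspa9 and Dnajb4 overlap.

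The promoters of stress-inducible genes of these families are known for heat shock elements, arrays of inverted 5-base units that bind heat shock factor. RefSeq promoter sequences of build GRCm38.p6 were at hand for 44 of the 54 genes, and the 250 bases before each annotated start were searched on both strands. The 3-unit element, TTCNNGAA followed after 2 bases by TTC, or its reverse complement, was found in 3 of the 44 genes, Dnajb6, Hspd1 and Hspe1, and in 0.514% of all 27025 genes with a promoter sequence. The 2-unit forms TTCNNGAA and GAANNTTC, which the 3-unit element contains, were found in 12 of the 44 genes, against 14.5% of all genes. The matched stretch of each of these 12 genes is shown, with the matched units in capitals. Dnaja4, Dnajb4, Hspb1 and Hspb6 among them were not called. The other 8 were called lower in the values as deposited (4 of them, Hspa1a, Hspd1, Hspe1 and Dnaja1, not with equal array medians). Beside these stand 30 of the 54 genes and 37.8% of all genes. The 8 are not independent, since Hspd1 and Hspe1 share a stretch and signal of Hspa1a and Hspa1b cannot be assigned with certainty. A link between element and fall was not tested.
Hspd1 (chr1:55088054-55088081, minus strand): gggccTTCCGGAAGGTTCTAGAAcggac
Hspe1 (chr1:55088054-55088081, plus strand): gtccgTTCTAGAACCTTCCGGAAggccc
Dnajb6 (chr5:29735847-29735869, plus strand): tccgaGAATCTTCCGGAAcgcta
Hsph1 (chr5:149636357-149636374, minus strand): aatctTTCTCGAAggctc
Hspa1b (chr17:34959330-34959347, minus strand): tgctgGAAGATTCctggc
Hspa1a (chr17:34972248-34972265, minus strand): tgctgGAAGATTCctggc
Dnaja1 (chr4:40722339-40722356, plus strand): ctctaGAAAATTCtacga
Dnajc10 (chr2:80315279-80315296, plus strand): tttatTTCTAGAAaactt
Dnaja4 (chr9:54699464-54699519, plus strand): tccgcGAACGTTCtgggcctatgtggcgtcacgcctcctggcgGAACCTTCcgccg
Dnajb4 (chr3:152193847-152193864, minus strand): cgctgTTCTAGAAagtac
Hspb1 (chr5:135887797-135887834, plus strand): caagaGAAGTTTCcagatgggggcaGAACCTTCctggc
Hspb6 (chr7:30553176-30553193, plus strand): ttattGAAGTTTCtaaat
The Hspd1 and Hspe1 sequences are the same bases read from opposite strands, since the genes for Hsp60 and Hsp10 stand head to head and share this promoter. The stretches of Hspa1b and Hspa1a are identical, and over the 250 bases before their starts the promoters of this duplicated pair match at 98.8% of positions. A match describes letters in the window and says nothing of binding in these oocytes.

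In the Hsp90 group, Hsp90aa1, the stress-inducible cytosolic Hsp90, gave different answers from different probe sets. Its brightest probe set had 11.79, 11.66 and 11.23 in MII oocytes, against 11.58, 11.21 and 11.45 in GV oocytes. These values overlap, and the difference was 0.14 with a 95% interval from -0.26 to 0.54 (-0.26 with hybridization controls and -0.73 with poly-A controls made equal). A further probe set of the gene had 10.32, 9.90 and 9.90 at MII, against 12.25, 12.12 and 12.28 at GV, and fell by 2.18 ± 0.16 (SE; limma, adjusted p = 1.7e-06). Another was higher at MII by 0.49 ± 0.17 (adjusted p = 0.038 by limma), a call lost when GV replicate 2 or 3 or MII replicate 1 or 2 was left out, where the difference was 0.34, 0.53, 0.42 and 0.48. The remaining probe sets, under the array medians at both stages, differed by -1.40, a call of lower that is a bound, and by -0.03. The direction read for Hsp90aa1 thus depended on the probe set and, for the brightest, on the scale between arrays.

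In the Hsp70 group, 5 of 11 genes fell and 2 rose, beside 37.8% and 10.5% of all genes. The steepest fall among the brightest probe sets of all 54 genes was that of Hsph1, an Hsp110 nucleotide exchange factor that also dissolves aggregates with Hsp70. Hsph1 had 5.96, 5.64 and 5.89 in MII oocytes, against 10.99, 11.56 and 11.01 in GV oocytes, a 41.0-fold fall (log2 difference -5.36 ± 0.18, limma adjusted p = 2.4e-08). Its other probe set was at -1.58 and was called lower as well. Hspa4, a further Hsp110 gene, had 8.59, 8.31 and 7.84 at MII, against 11.16, 11.51 and 11.24 at GV (-3.06 ± 0.20), while its other probe set was at -0.29 and not called.

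Hspa8, the constitutive Hsc70 of the cytosol, fell in 3 of its 4 probe sets. The brightest had 7.92, 8.43 and 7.88 in MII oocytes, against 11.81, 11.58 and 11.51 in GV oocytes (-3.56 ± 0.18, limma adjusted p = 1.5e-07), and the other falls were -3.20 and -4.02. The probe set that was not called lay at 2.45 on average in GV oocytes, near the bottom of the array's range. Probe sets of the types _x_at and _s_at, taken as matching several transcripts, include the brightest of Hspa8, a gene with processed copies, so its value may hold signal of those copies.

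The stress-inducible pair Hspa1b and Hspa1a has nearly identical coding sequence, so signal cannot be assigned to either gene with certainty. All 3 probe sets of Hspa1b fell, the dimmer ones at least 9.17-fold and 8.42-fold. The brightest had 5.45, 5.94 and 4.91 in MII oocytes, against 9.20, 8.81 and 8.99 in GV oocytes (-3.57 ± 0.24, limma adjusted p = 9.7e-07), and the spread among the MII arrays (SD 0.52) was larger than among the GV arrays (SD 0.20). The probe set named Hspa1a lay at 2.43, 2.71 and 2.50 at MII, against 3.09, 3.36 and 3.44 at GV, below the array medians at both stages, and was called lower, at least 1.68-fold (-0.75 ± 0.15; -0.12 and not called with equal array medians).

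Other Hsp70 genes were not called lower in the values as deposited. Hspa9, the mitochondrial Hsp70 or mortalin, had 10.34, 10.48 and 10.29 in MII oocytes, against 10.41, 10.45 and 10.28 in GV oocytes, a difference of -0.01 with a 95% interval from -0.31 to 0.29 (0.31 and not called after quantile normalization, 0.61 and called higher when array medians were made equal, -0.88 and called lower for poly-A controls). Hspa14, an Hsp70 that works at the ribosome, rose by 0.63 ± 0.15, with 8.28, 8.62 and 8.44 at MII against 7.66, 7.97 and 7.82 at GV (limma, adjusted p = 0.0065). Both of its probe sets were called higher, the second by 0.61. Hspa12a, a distant family member, rose by at least 0.82 ± 0.16, with 6.66, 6.60 and 6.94 at MII against 5.69, 5.98 and 6.08 at GV, where it was under the array medians. Its other probe set differed by 0.03.

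Hspa4l, an Hsp110 gene abundant in germ cells of the testis, had probe sets called in opposite directions. The brightest had 7.91, 7.80 and 8.05 in MII oocytes, against 7.53, 8.09 and 7.88 in GV oocytes, and was not called (0.09 ± 0.17). One of the others was lower by 0.65 ± 0.17 and another higher by 0.50 ± 0.16. That rise lay below the array medians at both stages and was not called when GV replicate 2 or 3 or MII replicate 1 or 2 was left out (0.37, 0.52, 0.39 and 0.52). Hspa13, a microsomal Hsp70, and Hspa2, known for its role in spermatogenesis, were at 0.31 and 0.12 and were not called.

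Among small Hsp, 1 of 4 genes fell, beside 37.8% of all genes. That gene was Hspb11, the component of intraflagellar transport named above as no heat shock chaperone. It had 5.58, 5.48 and 5.71 at MII against 6.52, 6.75 and 6.70 at GV (-1.07 ± 0.14, limma adjusted p = 0.00012). Hspb1, the Hsp27 chaperone of stressed cells, had 5.38, 5.85 and 5.93 in MII oocytes, against 5.56, 6.01 and 5.58 in GV oocytes, with overlapping values and a difference of 0.01 ± 0.19. Hspb6 and Hspb7, known from muscle and heart, were at -0.38 and 0.05, below the array medians at both stages, and were not called.

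The chaperonin genes, which share the promoter shown above, fell by similar small amounts. Hspd1, Hsp60, had 9.95, 9.65 and 9.50 in MII oocytes, against 10.53, 10.43 and 10.24 in GV oocytes, a fall of 0.70 ± 0.16 (limma, adjusted p = 0.0049). Hspe1, Hsp10, had 8.63, 8.67 and 8.48 at MII, against 9.32, 9.15 and 8.95 at GV, a fall of 0.54 ± 0.15 (limma, adjusted p = 0.013), and its other probe set was at -0.52, a call lost when GV replicate 2 or 3 or MII replicate 1 or 2 was left out (-0.42, -0.51, -0.40 and -0.50). Neither fall was called with equal array medians, where Hspd1 was at -0.079 and Hspe1 at 0.083, nor after quantile normalization. Of the other symbols, Hspbp1, a nucleotide exchange factor of Hsp70, had 3.56, 3.71 and 4.06 at MII, against 4.38, 4.21 and 4.39 at GV, below the array medians at both stages. It was lower by at least 1.46-fold (-0.55 ± 0.16) and lost its call without GV replicate 3, MII replicate 1 or MII replicate 2 (-0.51, -0.44 and -0.51). Hspg2 was lower by 0.53 ± 0.14 in 1 probe set and at 0.10 in the other (-0.22 and not called as their mean), and Hspbap1, named for its association with Hspb1, was at -0.15 and not called.

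**Figure D3:**
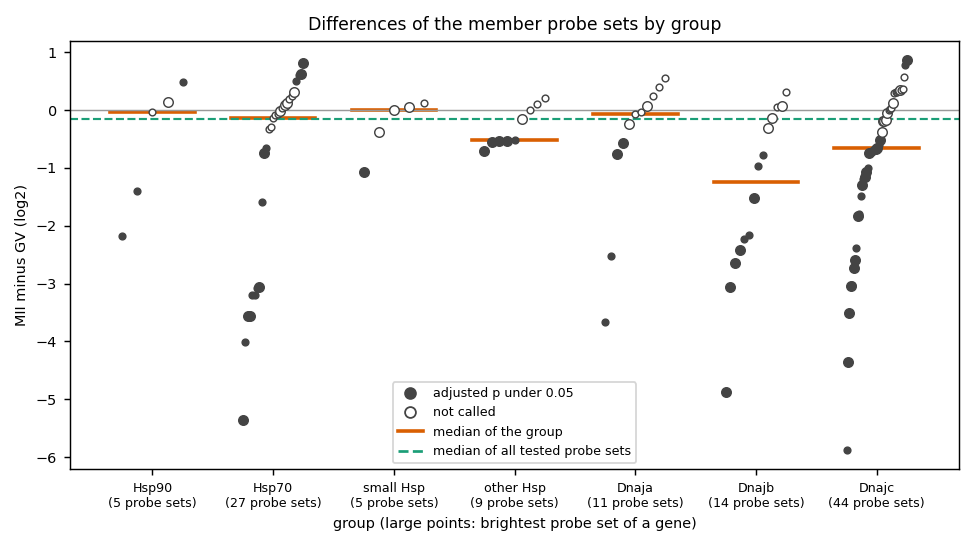
Difference between MII and GV oocytes (log2) of each member probe set by group, filled where the adjusted p was under 0.05, with large points for a gene's brightest probe set. Solid lines mark group medians, lowest for Dnajb at -1.24, and the dashed line the median of all tested probe sets, -0.15.

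Among the J-domain genes, 20 of 33 fell and 1 rose, beside 37.8% and 10.5% of all genes. Dnaja and Dnajb proteins are the canonical Hsp40 partners of Hsp70, whereas Dnajc proteins share only the J domain and work at many sites. The Dnaja group had 2 called falls among 4 genes, Dnajb 5 among 8, and Dnajc 13 falls and 1 rise among 21. The median difference over genes was -0.41 for Dnaja, -1.97 for Dnajb and -0.67 for Dnajc, beside -0.01 for Hsp70 and -0.20 for all genes. With equal array medians no Dnaja gene was called lower, and the 5 falls of Dnajb and 9 of those of Dnajc were called under all 5 scales.

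In the Dnaja group, Dnaja1, a cytosolic partner of Hspa8, fell in all 3 of its probe sets by very different amounts. The brightest had 9.78, 9.39 and 9.71 in MII oocytes, against 10.09, 10.27 and 10.26 in GV oocytes (-0.58 ± 0.15, limma adjusted p = 0.010). With equal array medians its difference turned to 0.047 and was not called. The next had 7.70, 7.88 and 7.85 at MII, against 11.30, 11.60 and 11.51 at GV, a 12.7-fold fall, and the last was at -2.53. The fall of Dnaja1 given by its brightest probe set is thus the smallest of the 3.

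Dnaja2, a close relative of Dnaja1, had 10.07, 9.93 and 10.10 in MII oocytes, against 10.77, 10.94 and 10.66 in GV oocytes (-0.76 ± 0.14, limma adjusted p = 0.0013). Its other probe sets were at 0.39 and 0.55, neither called, so without probe sets of the types _s_at and _x_at the gene was at 0.39. Dnaja3, the mitochondrial J protein Tid1, and Dnaja4 were at -0.24 and 0.07 and were not called (0.38 and 0.69, both called higher, with equal array medians, and -1.11 and -0.80, both called lower, for poly-A controls). The 3 probe sets of Dnaja4 lay between -0.07 and 0.07.

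Among brightest probe sets, the Dnajb group held the second steepest fall. Dnajb6, which keeps aggregation-prone proteins soluble, had 6.81, 6.90 and 6.56 in MII oocytes, against 12.15, 11.38 and 11.36 in GV oocytes, a 29.4-fold fall (-4.88 ± 0.22, limma adjusted p = 7.4e-08). Further probe sets of Dnajb6 fell by 0.97 and 2.16, and one was at 0.32 and not called. Dnajb1, the stress-inducible Hsp40, had 10.15, 10.13 and 9.89 at MII, against 11.62, 11.62 and 11.49 at GV, and fell by 1.52 ± 0.14 (limma, adjusted p = 8.6e-06), with its other probe set at -2.23.

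Dnajb9 and Dnajb11 serve Hspa5 in the endoplasmic reticulum, as the J proteins ERdj4 and ERdj3. Dnajb9 had 2.89, 2.79 and 3.24 in MII oocytes, against 6.35, 5.48 and 6.26 in GV oocytes, a fall of at least 8.31-fold. Dnajb11 had 6.65, 6.89 and 6.62 at MII, against 9.49, 9.44 and 9.15 at GV, a 6.25-fold fall. Dnajb2, which binds ubiquitinated clients in neurons, fell at least 5.34-fold.

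Dnajb4 had 12.05, 11.89 and 11.91 in MII oocytes, against 11.83, 11.84 and 11.97 in GV oocytes. These values overlap, and the difference of 0.07 had a 95% interval from -0.22 to 0.37. It was called higher at 0.70 when array medians were made equal. With hybridization controls made equal it was -0.33 and not called, and with poly-A controls -0.80 and called lower. Another of its probe sets was lower by 0.78 ± 0.13. Dnajb8, a testis gene, and Dnajb12, of the endoplasmic reticulum membrane, were at -0.14 and -0.31, below the array medians at both stages, and were not called.

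Within the Dnajc group, the steepest fall by the brightest probe set was that of Dnajc11, a partner of the mitochondrial contact site complex. Dnajc11 had 6.49, 6.82 and 7.03 in MII oocytes, against 10.85, 11.40 and 11.14 in GV oocytes, a 20.4-fold fall (-4.35 ± 0.19, limma adjusted p = 6.5e-08). Its other probe set had 7.81, 7.94 and 8.11 at MII, against 7.76, 7.63 and 7.53 at GV, and was not called (0.31 ± 0.14). Dnajc7, which binds both Hsp70 and Hsp90 through tetratricopeptide repeats, had 7.06, 7.13 and 6.46 at MII, against 10.72, 10.31 and 10.16 at GV, an 11.4-fold fall.

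Dnajc2, the J protein that recruits Hspa14 to the ribosome, fell in each of its 3 probe sets. The brightest had 5.73, 5.56 and 5.93 in MII oocytes, against 8.76, 9.03 and 8.58 in GV oocytes (-3.05 ± 0.16, limma adjusted p = 2.3e-07). The steepest fall among all 115 probe sets was another of this gene, with 4.12, 4.07 and 3.77 at MII against 9.93, 9.83 and 9.83 at GV, at least 58.8-fold. Of this ribosomal pair, Dnajc2 was thus lower and Hspa14 higher in the values as deposited.

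Other steep falls were those of Dnajc9, a chaperone that binds histones H3 and H4, at 6.66-fold, of Dnajc30 at no less than 6.0-fold and of Dnajc21, which takes part in ribosome maturation, at 3.55-fold. The other probe sets of Dnajc21 were at 0.30 and 0.33 and not called, and the mean over all 3 was -0.40 and not called. Dnajc30 acts in mitochondria. Dnajc17, a splicing cofactor, fell at least 2.46-fold. Dnajc16, below the array medians at both stages, fell at least 2.10-fold. Dnajc10, the disulfide reductase ERdj5, fell by 1.15 ± 0.15, and its 3 probe sets were all called lower. Smaller falls were called for Dnajc13 (-0.52), which acts on endosomes, Dnajc4 (-0.66), Dnajc6, the clathrin-uncoating auxilin (at least 1.59-fold), and Dnajc5, the cysteine string protein of secretory vesicles (-0.74). None of these 4 was called with equal array medians. The other probe set of Dnajc13 was at 0.35 and not called, and the mean of both was -0.086 and not called.

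Dnajc1, an endoplasmic reticulum J protein that touches the ribosome, was the J-domain gene that rose. Its brightest probe set had 8.69, 8.37 and 8.35 in MII oocytes, against 7.86, 7.26 and 7.72 in GV oocytes (0.86 ± 0.18, limma adjusted p = 0.0034). A second probe set, with 5.89, 5.57 and 5.84 at MII against 7.37, 7.84 and 7.51 at GV, fell by 1.80 ± 0.17, and the last fell at least 1.52-fold (-0.60, and -0.48, not called, without GV replicate 2). The mean over its probe sets was -0.52, a call of lower that opposes that of the brightest.

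Dnajc5 was read in opposite directions as well. Its brightest probe set had 7.02, 6.93 and 6.99 in MII oocytes, against 7.60, 7.90 and 7.67 in GV oocytes. A further one had 7.90, 7.62 and 7.53 at MII, against 6.44, 6.92 and 7.37 at GV, and was higher by 0.77 ± 0.22 (limma, adjusted p = 0.017), a call lost without MII replicate 1 (0.67). Its remaining 3 probe sets were not called.

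Dnajc3, the p58 inhibitor of stress-activated translation kinases and an Hspa5 co-chaperone, had 12.46, 12.41 and 12.35 in MII oocytes, against 12.15, 11.91 and 12.15 in GV oocytes. Its MII values all lay above the GV values, but the difference of 0.34 ± 0.14 was not called (limma, adjusted p = 0.067). Without moderation of the variance the same difference was called higher. Its direction depended on the scale between arrays. Equal array medians put it at 0.96 and quantile normalization at 0.47, both called higher. Poly-A controls put it at -0.53, called lower, and hybridization controls at -0.065, not called. Another probe set fell by 1.00 ± 0.20 and the remaining 3 were not called. The mean over the gene's probe sets was -0.0049 and not called. Dnajc3 alone among the 44 genes had the endoplasmic reticulum stress element, CCAAT and CCACG separated by 9 bases on either strand, which 0.13% of all genes with a promoter sequence held. The element is in capitals.
Dnajc3 (chr14:118937822-118937850, plus strand): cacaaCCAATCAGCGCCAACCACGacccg

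Dnajc8, a spliceosome-associated J protein, had 10.86, 11.07 and 11.25 in MII oocytes, against 10.97, 11.51 and 11.21 in GV oocytes, and was not called (-0.17, with a 95% interval from -0.56 to 0.23). Its other probe set was lower by 0.68, a call lost without GV replicate 2, MII replicate 1 or MII replicate 2 (-0.58, -0.59 and -0.60). Dnajc14 was at -0.19 and not called in its brightest probe set, of the type _s_at, while the others were lower, at -1.48 and -2.39. Dnajc15, Dnajc18, Dnajc25 and Dnajc5b were at -0.19, 0.12, -0.06 and -0.38 and were not called.

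Probe sets of the same gene often received different calls. Of the 54 genes, 33 had several probe sets and 21 had 1. All probe sets were called lower for 8 of the 33, all higher for 1 (Hspa14), and none was called for 6. Another 13 had some called lower and some not called, 1 had some called higher and some not called (Hspa12a), and 4 were called in opposite directions (Hsp90aa1, Hspa4l, Dnajc1 and Dnajc5), beside 10.8% of all 4739 genes with several probe sets. Over probe sets instead of genes, 57 of 115 were lower and 7 higher in MII oocytes, beside 34.1% and 10.9% of all tested, and the number higher was 4 without MII replicate 1.

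**Figure D4:**
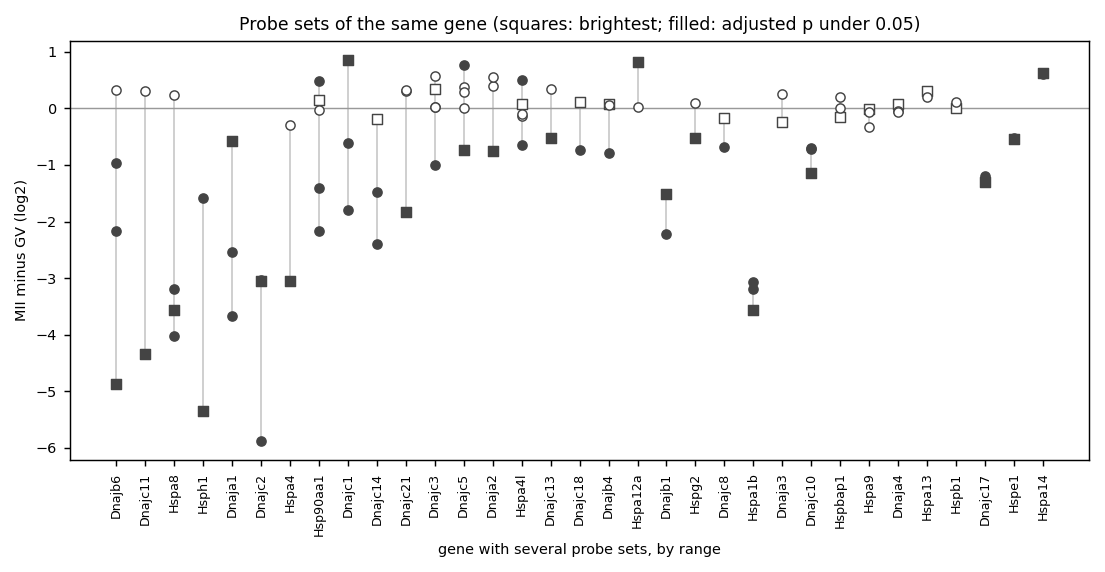
Difference between MII and GV oocytes (log2) of every probe set of the 33 genes with several, in order of their range, with squares for the brightest probe set and filled symbols for an adjusted p under 0.05. The probe sets of Dnajb6 run from -4.88 to 0.32, while those of Hspa1b lie between -3.57 and -3.07.

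By cellular site, compiled after the values were seen and therefore not tested, the 7 mitochondrial genes (Hspa9, Hspd1, Hspe1, Dnaja3, Dnajc11, Dnajc15 and Dnajc30) held 4 falls and no rise, from -4.35 to -0.01, beside falls for 37.8% of all genes. The 8 endoplasmic reticulum genes (Dnajb9, Dnajb11, Dnajb12, Dnajc1, Dnajc3, Dnajc10, Dnajc14 and Hspa13) held 3 falls and 1 rise, from -3.06 to 0.86, a share of falls near that of all genes. Steep falls and differences near 0 thus occurred at both sites, and the falls of Hspd1 and Hspe1 and the rise of Dnajc1 depend on the scale as given above.

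Co-chaperones outside the 2 symbol families moved in the same range. Of 12 measured Hsp70 co-chaperones and nucleotide exchange factors, Hspbp1 included, 9 were lower and none higher (4 lower and 3 higher when array medians were made equal), beside 37.8% and 10.5% of all genes. Bag4, of the BAG exchange factor family, had 6.22, 5.90 and 6.02 in MII oocytes, against 9.69, 9.62 and 9.53 in GV oocytes (-3.56 ± 0.14, limma adjusted p = 4.2e-08). Bag1 fell at least 5.46-fold, and Sgta, a tetratricopeptide co-chaperone, fell by 1.77.

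Of 19 measured Hsp90 co-chaperones 7 were lower and 2 higher (6 lower and 10 higher when array medians were made equal, 17 lower and none higher for poly-A controls), shares near the 37.8% and 10.5% of all genes. Nudc, a chaperone of dynein regulators, had 7.66, 8.0 and 7.87 at MII, against 11.57, 12.11 and 11.63 at GV, a 15.2-fold fall. Trap1, the mitochondrial Hsp90 itself, fell by 3.09, and Aarsd1 fell at least 3.83-fold. Ahsa1, which activates the ATPase of Hsp90, rose by 0.70 ± 0.19 (0.56 and 0.54, not called, without GV replicate 3 or MII replicate 3), and Sugt1 by 0.46 ± 0.13 (0.38 and 0.44, not called, without GV replicate 3 or MII replicate 2), while another probe set of Sugt1 was called lower.

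Of 3 measured J-domain genes with other symbols, Sec63 of the protein translocon and Hscb of iron-sulfur cluster assembly fell by 1.04 and 0.97, and Gak was at 0.42 and not called. Of 7 genes listed with the heat shock factors and alpha crystallins 3 were measured, and Hsf1, Hsf2, Hsf4 and Cryaa were not. Among the 3 measured, Hsbp1, which binds heat shock factor 1, rose by 0.54 ± 0.14, although another of its probe sets was called lower. Hsf5 and Cryab were at 0.39 and -0.08 and were not called.

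The samples carried oocyte transcripts at both stages, with the oocyte growth factor Gdf9 at 12.59 in MII and 12.50 in GV oocytes. Of 13 measured oocyte markers 8 were lower and 1 higher, beside 37.8% and 10.5% of all genes. Their median difference was -1.26, and they ran from -4.26 for Zp2 to 0.69 for Bmp15. Of 15 listed granulosa and cumulus markers 8 were measured, and Cyp19a1, Inha, Amh, Hsd3b1, Lhcgr, Slc38a3 and Amhr2 were not. Of the 8 measured, 3 were lower at MII and none higher, a share of falls near that of all genes. Their summed level on the linear scale was 204 to 216 at MII and 301 to 323 at GV. The mean of 1 of these 8 exceeded the median over all tested probe sets, and the 3 that fell were Inhba, Inhbb and Fshr. Inhba, an inhibin subunit, had 4.99, 5.05 and 5.01 in MII oocytes, against 6.45, 6.59 and 6.23 in GV oocytes, over the GV array medians, an at least 2.65-fold fall. Inhbb fell at least 2.03-fold and Fshr, the follicle-stimulating hormone receptor, at least 1.43-fold, both under the array medians at both stages. The part of such cells in the falls of the chaperone genes was not tested. Of 9 listed cumulus expansion genes 5 were measured, and Tnfaip6, Areg, Ereg and Pgr were not. Of the 5 measured, 0 were called by limma, with 0 at an unadjusted p under 0.05 and 0 without moderation of the variance. The mean of 0 of them exceeded the median over all tested probe sets.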

How the data were processed

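The values are log2 expression values per probe set as deposited by the authors. RMA and affy are the tools listed, without settings, per the submitters' processing notes. How the tabulated probe sets were selected, and the background correction, are not given by the labels. Per the labels, 10 ng of total RNA per sample was amplified over 2 rounds. No further step was applied to the deposited log2 values.

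Of 21702 rows, 56 control features were set aside. Symbols came from the array's annotation, and all 54 symbols were in the RefSeq gene table. A linear model with stage alone was fitted to all 21646 probe sets (limma 3.58.1, R 4.3.3; lmFit, eBayes, 2-sided), and p-values were adjusted over all of them by the Benjamini-Hochberg method. A gene was read from its probe set with the highest mean over the 6 arrays, and intervals are 95% intervals of the moderated fit. The number of arrays, 3 per stage, limits the precision. Promoters were aligned with Biopython 1.88.

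The members, lists and tests were chosen with earlier results of these data known. Named in full were, per group, up to 3 largest called falls, up to 3 largest called rises, the 2 genes with the highest mean, and genes called in opposite directions. From the 4 lists of other chaperone genes, up to 3 called falls and rises each were named. The values of Hspa4, Gak, Hsf5, Cryab, Inhba, Inhbb, Fshr, Gdf9, Zp2 and Bmp15 and of probe sets other than the brightest were chosen after they were seen. Alternatives covered 4 other scales between arrays, a filter on dim probe sets, the probe set type, the variance model, each replicate left out, a replicate block and the mean over a gene's probe sets.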

Additional observations from a re-analysis of the deposited data

How the results depend on the processing

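Each value below is the MII minus GV difference (log2) or a number of genes or probe sets under a setting other than the values as deposited. The scale between arrays changed more calls than any other choice tried. Over all 21646 probe sets, 4306 were lower and 12016 higher with array medians made equal, with a median difference of 0.47. After quantile normalization 4794 were lower and 7538 higher, with a median of 0.19. Hybridization controls made equal gave 7179 lower and 104 higher, with a median of -0.56. Poly-A controls made equal gave 18380 lower and 65 higher, with a median of -1.02. With array medians made equal, 37 member probe sets were lower and 51 higher, with a median difference of 0.25, and 19 genes were lower and 21 higher, among them higher 1 of Hsp90, 6 of Hsp70, 2 of small Hsp, 1 of other Hsp, 2 of Dnaja, 2 of Dnajb and 7 of Dnajc. No other Hsp or Dnaja gene was then lower (0 each), and the lists had 10 Hsp90 co-chaperones higher, 3 Hsp70 co-chaperones higher and 4 lower, 1 other J-domain gene higher and 1 lower, and 3 genes higher in the list with the heat shock factors. After quantile normalization, 36 probe sets and 11 genes were higher, with a median of 0.11: 5 of Hsp70, 1 of small Hsp, 1 of other Hsp (0 lower), 1 of Dnaja (1 lower) and 3 of Dnajc, with 8 Hsp90 co-chaperones, 2 Hsp70 co-chaperones (5 lower), 1 other J-domain gene (1 lower) and 2 of the heat shock factor list. With hybridization controls made equal, the median was -0.78 and 0 member probe sets, genes or list members were called higher. With poly-A controls made equal, the median was -1.25, 103 probe sets and 51 genes were lower and 0 higher: 1 of Hsp90, 9 of Hsp70, 4 of small Hsp, 5 of other Hsp, 4 of Dnaja, 8 of Dnajb and 20 of Dnajc, with 17 Hsp90 co-chaperones and 1 of the heat shock factor list. The poly-A controls were dim, with array means of 5.14 to 5.43 at MII and 4.28 to 4.71 at GV.

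Signs turned for genes near 0. With equal array medians they became 0.46 for Dnajc8, 0.43 for Dnajc14, 0.61 for Hspa9, 0.047 for Dnaja1, 0.10 for Dnajc13, 0.083 for Hspe1, 0.38 for Dnaja3, 0.10 for Hspg2, 0.47 for Hspbap1, 0.44 for Dnajc15, 0.25 for Dnajc5b, 0.25 for Hspb6, 0.49 for Dnajb8, 0.32 for Dnajb12, 0.076 for Hspbp1 and 0.56 for Dnajc25, and 0.30, 0.11 and 0.020 for further probe sets of Hspa9, Hspe1 and Dnajc1. After quantile normalization they were 0.11 for Dnajc8, 0.12 for Dnajc14, 0.31 for Hspa9, 0.32 for Dnaja3, 0.14 for Hspg2, 0.52 for Hspbap1, 0.48 for Dnajc15, 0.23 for Dnajc5b, 0.38 for Dnajb8, 0.11 for Hspb6, 0.047 for Dnajb12 and 0.21 for Dnajc25, and 0.23 and 0.15 for further probe sets of Hspa9 and Hspe1. With hybridization controls equal they were -0.065 for Dnajc3, -0.33 for Dnajb4, -0.26 for Hsp90aa1, -0.33 for Dnaja4, -0.32 for Hspa4l, -0.093 for Hspa13, -0.40 for Hspb1, -0.28 for Hspa2, -0.36 for Hspb7 and -0.28 for Dnajc18, and for further probe sets -0.012 (Dnaja2), -0.086 (Dnajb6), -0.091 (Dnajc11), -0.057 (Dnajc13), -0.10 and -0.076 (Dnajc21) and -0.033 (Dnajc5). With poly-A controls equal they were -0.53 for Dnajc3, -0.80 for Dnajb4, -0.73 for Hsp90aa1, -0.24 for Hspa14, -0.012 for Dnajc1, -0.80 for Dnaja4, -0.79 for Hspa4l, -0.056 for Hspa12a, -0.56 for Hspa13, -0.87 for Hspb1, -0.75 for Hspa2, -0.83 for Hspb7, -0.75 for Dnajc18, -0.17 for Ahsa1, -0.41 for Sugt1 and -0.34 for Hsbp1, and for further probe sets -0.38 (Hsp90aa1), -0.26 (Hspa14), -0.38 (Hspa4l), -0.48 and -0.32 (Dnaja2), -0.55 (Dnajb6), -0.56 (Dnajc11), -0.52 (Dnajc13), -0.57 and -0.54 (Dnajc21), -0.29 (Dnajc3) and -0.10 and -0.50 (Dnajc5).

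With the mean over a gene's probe sets, signs turned to -0.0049 for Dnajc3, -0.22 for Dnajb4, -0.59 for Hsp90aa1 (called lower), 0.063 for Dnaja2, 0.0050 for Dnaja3, -0.52 for Dnajc1 (called lower), -0.013 for Dnaja4, -0.059 for Hspa4l, 0.14 for Dnajc5, 0.021 for Hspbap1, -0.31 for Dnajc18, -0.39 for Sugt1 and -0.031 for Hsbp1. It called 1 Hsp90, 2 small Hsp and 1 Dnaja gene lower, 0 Dnajc genes higher, 1 Hsp90 co-chaperone higher and 11 lower, and 0 of the heat shock factor list higher. Without probe sets of the types _s_at and _x_at, Dnaja2 was at 0.39 and Hspbap1 at 0.0026, with 1 Hsp70 gene higher and 1 Dnaja gene lower. Among probe sets above the median mean, the members' median was -0.61, and 5 Hsp70 co-chaperones were lower, fewer being tested. Without moderation 2 Dnajc genes and 1 Hsp90 co-chaperone were higher.

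With each replicate left out in turn, 54 to 58 probe sets were lower and 4 to 9 higher, 29 to 31 genes lower and 3 higher, and the median was -0.48 to -0.40. Small Hsp had 1 to 2 genes lower, other Hsp 3 to 4, Hsp90 co-chaperones 7 to 8 lower and 0 to 2 higher, other J-domain genes 0 to 1 higher and the heat shock factor list 1 to 2 higher. Values of uncalled genes ranged from -0.10 to 0.18 for Hspb1, -0.067 to 0.031 for Hspa9, -0.054 to 0.27 for Dnaja4, -0.079 to 0.13 for Hspb7, -0.066 to 0.22 for Hspa4l and -0.20 to 0.040 for Dnajc25. With a replicate block for the arrays numbered alike, whose deviations correlated at 0.029 and 0.027 in the 2 numbered pairs, 57 member probe sets were lower and 7 higher, as without it. The samples share only a number. The causes of these changes were not tested.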
